A study of Homo sapiens with 6 samples.

Results

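The genes described here are 43 listed genes of DNA repair and the replication stress response. They were chosen by name, with earlier results of these data known. They come from homologous recombination, DNA end resection, the Fanconi anemia pathway, mismatch repair, end joining, and the checkpoint that guards replication forks. Of these, 38 had a probe set of their own, out of 19775 genes that could be named on the array, and the brightest probe set over the 6 arrays stood for each gene. All 38 lay above the level minimum used for testing, a mean of 4.42 on the log2 scale, which 12012 genes passed. BRCA2, RBBP8, FANCA and FANCD2 had no probe set named in the annotation used, and PMS2 was found only on probe sets shared with a near-identical gene; these 5 are not analysed here.

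RNA was measured on Affymetrix U133 Plus arrays in Raji, Namalwa and Ramos, 3 human cell lines of Burkitt lymphoma, a fast-growing B-cell tumour in which a translocation drives MYC. Each line gave 1 array labelled miR26a and 1 labelled empty, so the groups are miR26a cells (3 arrays) and empty cells (3 arrays). The cells were transfected, and doxycycline at 0.5 µg/ml for 72 h, which switched on the microRNA, is listed for both groups alike. The title of the study names EZH2, a histone methyltransferase, as a gene that miR-26a represses, and the comparison asks which RNAs differ when the microRNA is induced. The labels do not say what the empty construct holds, or whether a line was 1 clone or a pool. Separate cultures of a line within a group are not described in the labels. The p-values therefore measure how far these 6 arrays spread, which may in part be technical. The level of mature miR-26a was not analysed here.

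A break in both DNA strands is mended by homologous recombination, which copies an intact sister strand after the ends have been cut back, or by end joining, which seals the ends directly. Crosslinks between strands are unhooked at stalled forks by the Fanconi anemia proteins, and mispaired bases left by replication are removed by mismatch repair. ATM and ATR are the kinases that sense breaks and stalled forks, and CHEK1 and CHEK2 carry their signal. Many of these genes are transcribed mostly in dividing cells, in S phase above all, through E2F factors at the start of the gene.

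The microRNA induced in the cells is shown first, since it defines the groups. The mature sequence of miR-26a-5p is the same from MIR26A1 at chr3:37969413-37969434 (plus strand) and MIR26A2 at chr12:57824658-57824679 (minus strand) in RefSeq (GRCh38.p14). Capitals mark the seed, bases 2 to 8.
miR-26a-5p: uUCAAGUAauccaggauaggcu

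Promoters of the 4 genes with the most negative mean difference between miR26a and empty cells, EXO1, POLQ, CLSPN and BLM, are printed because these genes lead the comparison below. Each runs over 250 bases before and 50 bases after the first listed RefSeq start, with the start base counted as 0. Capitals mark matches, on either strand, to 4 E2F motifs (TTTGGCGC, TTTCCCGC, TTTCGCGC and TTTGCCGC), the CHR element TTTGAA, the CCAAT box and the NRF1 motif GCGCATGC. EXO1 lies at chr1:241847954-241848253 on the plus strand, POLQ at chr3:121545939-121546238 on the minus strand, CLSPN at chr1:35769929-35770228 on the minus strand and BLM at chr15:90717096-90717395 on the plus strand.
EXO1: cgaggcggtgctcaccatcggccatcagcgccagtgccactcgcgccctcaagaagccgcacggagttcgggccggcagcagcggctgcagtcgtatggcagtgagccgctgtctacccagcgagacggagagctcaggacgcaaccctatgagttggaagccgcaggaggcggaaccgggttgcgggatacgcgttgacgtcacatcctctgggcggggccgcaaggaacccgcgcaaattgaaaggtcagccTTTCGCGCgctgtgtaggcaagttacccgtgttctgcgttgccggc
POLQ: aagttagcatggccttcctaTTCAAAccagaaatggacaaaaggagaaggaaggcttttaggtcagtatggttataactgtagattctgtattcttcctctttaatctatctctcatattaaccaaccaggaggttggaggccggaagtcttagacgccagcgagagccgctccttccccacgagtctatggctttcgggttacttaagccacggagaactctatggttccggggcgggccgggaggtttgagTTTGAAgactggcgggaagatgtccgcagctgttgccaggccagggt
CLSPN: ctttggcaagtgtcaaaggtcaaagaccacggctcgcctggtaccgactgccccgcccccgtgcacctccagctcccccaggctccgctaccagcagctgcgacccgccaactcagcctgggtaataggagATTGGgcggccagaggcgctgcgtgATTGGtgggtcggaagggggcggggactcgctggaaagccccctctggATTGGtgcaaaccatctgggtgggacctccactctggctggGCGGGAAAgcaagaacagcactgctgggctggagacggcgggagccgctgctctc
BLM: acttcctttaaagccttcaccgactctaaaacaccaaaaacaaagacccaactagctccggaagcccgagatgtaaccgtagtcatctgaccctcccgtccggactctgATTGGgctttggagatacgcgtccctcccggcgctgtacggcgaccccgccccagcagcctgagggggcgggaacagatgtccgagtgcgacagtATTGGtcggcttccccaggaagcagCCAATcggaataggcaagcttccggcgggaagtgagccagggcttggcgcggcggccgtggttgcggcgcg
The EXO1 window held 1 E2F match, from base 4 to base 11. The CLSPN window held an E2F match on the other strand, from base -5 to base 2, and 3 CCAAT boxes. BLM held 3 CCAAT boxes, and POLQ held 2 CHR elements, from base -230 to -225 and from base 3 to 8. No match overlapped another in these 4 windows, and a match describes letters only.

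Of the 38 genes, 33 had a window in the RefSeq table. At least 1 of the 4 E2F motifs stood in 8 of the 33 (24.2%): CLSPN, EXO1, FANCC, LIG1, MSH3, MSH6, TOPBP1 and XRCC2. The share was 5.24% over the 9697 tested genes with a window and 3.33% over all 27305 genes of the table. A CCAAT box stood in 17 of the 33 (51.5%), against 36.9% of the tested genes. The CHR element, at 12.1% of the 33 and 9.9% of the tested genes, and the NRF1 motif, at 6.06% and 5.57%, stood closer to the tested genes. Of the genes with an E2F match, CLSPN, EXO1, MSH6 and TOPBP1 were lower in miR26a cells of all 3 lines. FANCC (mean difference 0.04 log2), MSH3 (0.03), LIG1 (-0.11) and XRCC2 (-0.21) differed in direction between lines. Whether a motif goes with the difference was not tested.

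Median log2 intensity was 4.36 to 4.44 per array. All 9 B-cell markers measured were above the level minimum, against 4 of 10 T and NK cell markers, 2 of 9 monocyte markers, 4 of 8 fibroblast markers and 2 of 4 red cell markers. The summed level of the B-cell markers was 12.3 to 13.5 in miR26a cells and 12.2 to 13.5 in empty cells (log2). One array, Namalwa empty, stood apart in a sign of RNA quality. The signal from the 3′ end of ACTB exceeded that from its 5′ end by 3.58 log2 there, against 1.80 to 1.98 on the other 5 arrays. For GAPDH the same difference was 0.31 on the Namalwa empty array and 0.10 to 0.16 on the others.

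In miR26a cells the repair genes were mostly lower than in empty cells, by small amounts. Of the 38, 26 were lower in all 3 lines, 1 (ATR) was higher in all 3, and 11 differed in direction between lines. Over all 12012 genes tested, 19.6% were lower in all 3 lines and 15.5% were higher. Any negative difference counted as lower, however small, as for RAD54B (-0.00011) and XRCC4 (-0.0098) in Namalwa. With the mean of all probe sets of a gene, 22 of 36 repair genes were lower in all 3 lines. With the most variable probe set they were 21 of 35. The median difference, miR26a minus empty, was -0.28 log2 over the 38 genes and -0.01 over all genes tested. In bulk RNA, fewer cells that express a gene and less of its RNA per cell cannot be told apart.

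No repair gene passed the test. limma, with the cell line as a block and Benjamini-Hochberg adjustment over all genes tested, called 0 of the 38 at an adjusted p under 0.05, and 0 of all 12012 genes (0.0%). At an unadjusted p under 0.05, 22 of the 38 were lower and 0 higher, where the share of all genes was 7.33% lower and 5.56% higher. The genes were chosen with earlier results of these data known. Setting their counts beside those of all genes, here and above, therefore does not test the list. Of the 38, 5 stood among the 100 smallest p-values: EXO1, POLQ, BLM, CLSPN and RAD54L. An exact two-sided sign-flip permutation test over 3 pairs cannot go below p = 0.25, the value it gave for EXO1. Each SE below is limma's own, for which the spread is in part pooled over all genes tested. It does not measure the spread between the 3 pairs of a gene alone.

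By line, the median over the 38 genes was -0.22 in Raji, -0.32 in Namalwa and -0.22 in Ramos. The count of genes lower in miR26a than in empty cells was 28 in Raji, 35 in Namalwa and 32 in Ramos. The Namalwa difference rests on the empty array with the high ACTB value, whose part in it was not tested. With the Namalwa pair left out, the median over the 38 genes was -0.24.

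**Figure D1:**
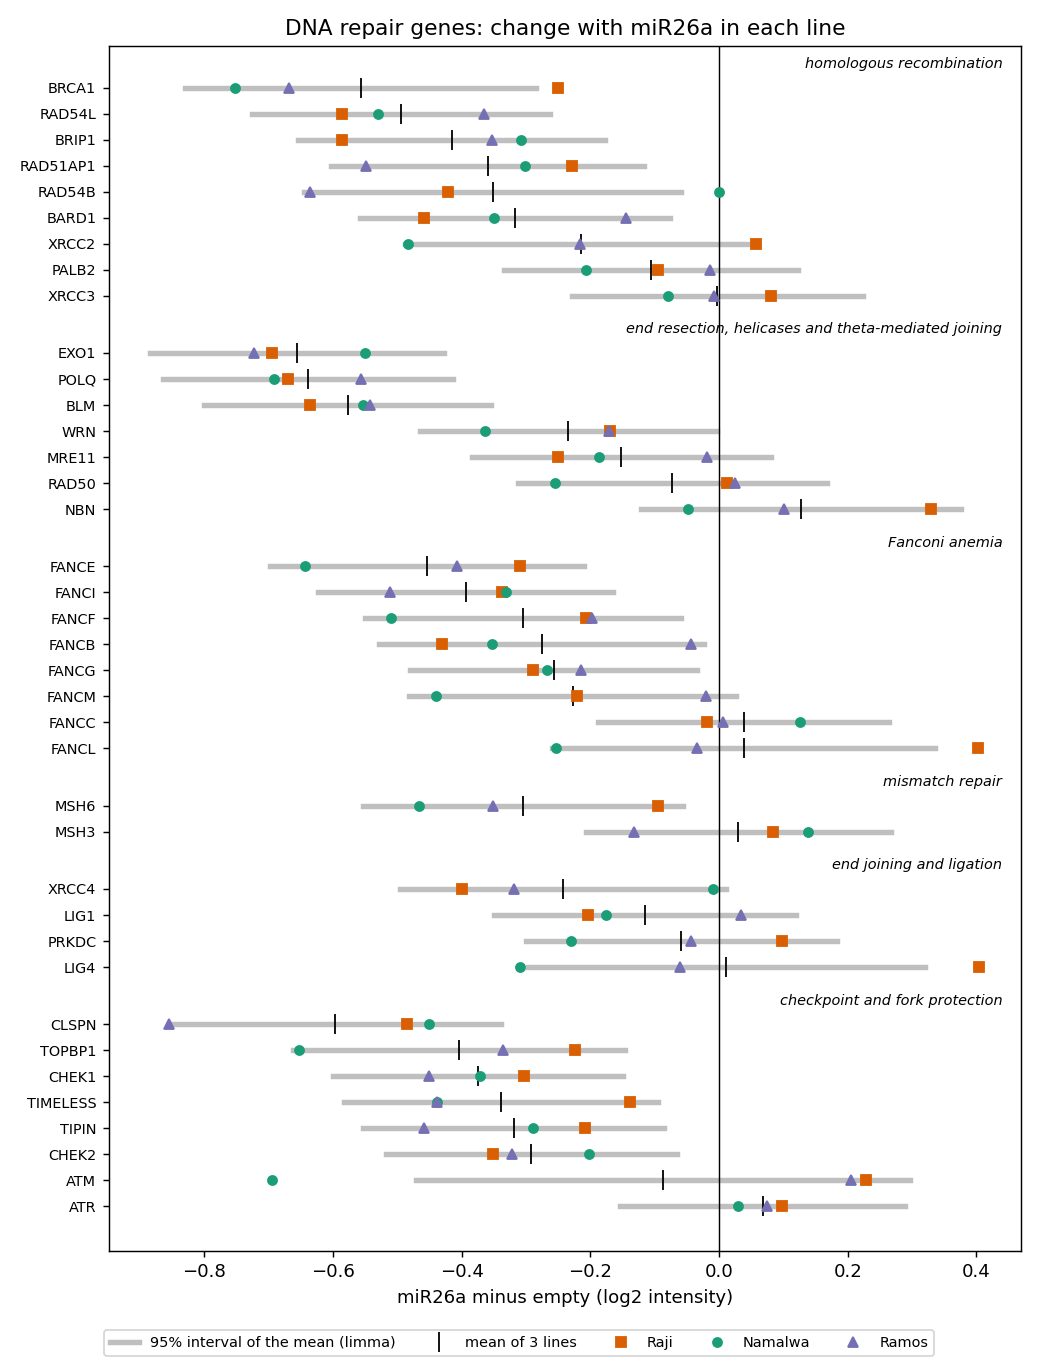
Difference in log2 intensity, miR26a minus empty, for each of the 38 genes by role, with a symbol per line, a black tick at the mean of 3 lines and a grey bar for limma's 95% interval of that mean. EXO1, POLQ, CLSPN and BLM have the most negative means, and ATR is the gene with all 3 lines right of 0.

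Homologous recombination copies an intact strand, and of its 10 listed genes 9 were tested. Of the 9, 7 were lower in all 3 lines, with a median difference of -0.35 log2. BRCA1, which with its partner BARD1 directs ends towards recombination, was at 7.18, 7.52 and 7.08 log2 in miR26a cells of Raji, Namalwa and Ramos, against 7.43, 8.27 and 7.75 in empty cells. Its ranges overlapped, because the Raji empty array was below the Namalwa miR26a array. The mean difference was -0.56 ± 0.12 (SE, n = 3 pairs; limma adjusted p = 0.115), with -0.25 in Raji and -0.75 in Namalwa. A second BRCA1 probe set gave -0.43, lower in each of the 3 lines.

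RAD54L is a motor protein of homologous recombination that moves along DNA. It was at 6.91, 7.31 and 7.37 log2 in miR26a cells of Raji, Namalwa and Ramos, against 7.49, 7.84 and 7.74 in empty cells. Every miR26a array was below every empty array, and the mean difference was -0.49 ± 0.10 (SE, n = 3 pairs; limma adjusted p = 0.106). BRIP1, a helicase that binds BRCA1, was at 5.57, 6.21 and 6.09 in miR26a cells and 6.16, 6.51 and 6.44 in empty cells. Here the ranges overlapped, with the Namalwa miR26a array above the Raji empty array, and the mean difference was -0.42 ± 0.11 (SE, n = 3 pairs; limma adjusted p = 0.146). A dimmer BRIP1 probe set was higher in miR26a cells of Namalwa, by 0.35. RAD51AP1 (-0.36), RAD54B (-0.35), BARD1 (-0.32) and PALB2 (-0.11) completed the 7, of which RAD54B in Namalwa was 4.98 log2 on both arrays. XRCC2 (-0.21) and XRCC3 (-0.0024), which both act in homologous recombination, were higher in miR26a cells of Raji.

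End resection, unwinding and theta-mediated joining held EXO1 and POLQ, with the 2 most negative mean differences of the 38. Of 7 tested genes, 5 were lower in all 3 lines, with a median of -0.23 log2. EXO1, the exonuclease that cuts back DNA ends, was at 6.83, 6.97 and 7.25 log2 in miR26a cells of Raji, Namalwa and Ramos, against 7.52, 7.52 and 7.97 in empty cells. The highest miR26a array was below the lowest empty array, and the mean difference was -0.66 ± 0.10 (SE, n = 3 pairs; limma adjusted p = 0.073). POLQ encodes polymerase theta, which joins resected ends at short matching stretches. It was at 7.19, 7.46 and 7.62 in miR26a cells and 7.86, 8.15 and 8.18 in empty cells. These groups did not overlap either, and the mean difference was -0.64 ± 0.10 (SE, n = 3 pairs; limma adjusted p = 0.073), with -0.78 on a second probe set.

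BLM, the helicase lost in Bloom syndrome, was at 6.63, 7.76 and 7.72 log2 in miR26a cells of Raji, Namalwa and Ramos, against 7.27, 8.31 and 8.26 in empty cells. Within each line the difference was alike, at -0.64 in Raji, -0.55 in Namalwa and -0.54 in Ramos, while the groups overlapped because Raji was low on both arrays. The mean difference was -0.58 ± 0.10 (SE, n = 3 pairs; limma adjusted p = 0.073). WRN (-0.23), the helicase lost in Werner syndrome, and the nuclease MRE11 (-0.15) were lower in all 3 lines as well. For MRE11 the Ramos difference was -0.02, and a dimmer probe set was higher in miR26a cells of Namalwa, by 0.46. The partners of MRE11 stood near 0 or above it, RAD50 at -0.07 and NBN at 0.13.

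Of 8 tested Fanconi anemia genes, 6 were lower in all 3 lines, with a median of -0.27 log2. FANCE, a subunit of the core complex that marks crosslinks, was at 6.33, 6.03 and 6.17 in miR26a cells of Raji, Namalwa and Ramos, against 6.64, 6.67 and 6.58 in empty cells. The groups did not overlap, and the mean difference was -0.45 ± 0.11 (SE, n = 3 pairs; limma adjusted p = 0.130). FANCI, a partner in the clamp that the core complex modifies, was at 7.94, 8.91 and 8.39 in miR26a cells and 8.27, 9.24 and 8.91 in empty cells. Its groups overlapped, since the lines differ more than the groups, and the mean difference was -0.39 ± 0.10 (SE, n = 3 pairs; limma adjusted p = 0.148). All 3 FANCI probe sets were lower in each line. FANCF (-0.30), FANCB (-0.28), FANCG (-0.26) and FANCM (-0.23) made up the 6, and FANCC and FANCL were each at 0.04. A dimmer FANCF probe set was higher in miR26a cells of Ramos, by 0.075.

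The mismatch and end-joining genes were closer to 0. MSH6, which recognises single mispairs, was lower in all 3 lines by a mean of -0.30 log2, and its groups did not overlap. One of its other probe sets was higher in miR26a cells of each line, by a mean of 0.29, so its direction rests on the probe set. MSH3, which recognises loops, was at 0.03. Of 4 end-joining and ligation genes, XRCC4 (-0.24) was lower in all 3 lines, although the Namalwa difference was -0.01 and its dimmest probe set was higher by 0.27. LIG1 (-0.11), the ligase of replication, PRKDC (-0.06), the DNA-dependent kinase, and LIG4 (0.01), the end-joining ligase, differed in direction between lines.

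Among the 8 checkpoint and fork genes, 6 were lower in all 3 lines, with a median of -0.33 log2. CLSPN, the adaptor through which ATR activates CHEK1, was at 4.52, 4.44 and 4.29 in miR26a cells of Raji, Namalwa and Ramos, against 5.002, 4.89 and 5.15 in empty cells. The groups did not overlap, and the mean difference was -0.60 ± 0.12 (SE, n = 3 pairs; limma adjusted p = 0.0826). The Ramos miR26a array was below the level minimum of 4.42, so this value lies at the dim end of what was tested, and a second CLSPN probe set gave -0.29.

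CHEK1, the kinase that slows replication after fork damage, was at 8.40, 8.17 and 7.87 log2 in miR26a cells of Raji, Namalwa and Ramos, against 8.70, 8.54 and 8.32 in empty cells. The ranges overlapped through Raji, and the mean difference was -0.38 ± 0.10 (SE, n = 3 pairs; limma adjusted p = 0.156). Of its 4 probe sets, 3 were lower in every line, and the dimmest was higher in every line, by a mean of 0.32. CHEK2, the kinase downstream of ATM, was at 7.20, 7.18 and 7.30 in miR26a cells and 7.55, 7.38 and 7.63 in empty cells. It did not overlap between groups, with a mean difference of -0.29 ± 0.10 (SE, n = 3 pairs; limma adjusted p = 0.266). TOPBP1 (-0.40), an activator of ATR, and TIMELESS (-0.34) and TIPIN (-0.32), which travel with the fork, were also lower in all 3 lines.

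ATM and ATR, the kinases at the head of the response, were not lower in all 3 lines. ATR was at 9.06, 8.76 and 8.90 log2 in miR26a cells of Raji, Namalwa and Ramos, against 8.96, 8.73 and 8.83 in empty cells. The groups overlapped, with a mean difference of 0.07 ± 0.10 (SE, n = 3 pairs; limma adjusted p = 0.831). ATM was at 8.87, 7.83 and 8.18 in miR26a cells and 8.64, 8.52 and 7.97 in empty cells. It was lower in miR26a cells in Namalwa alone, by 0.69, and the mean difference was -0.09 ± 0.17 (SE, n = 3 pairs; limma adjusted p = 0.880). Without the Namalwa pair the ATM difference was 0.22.

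**Figure D2:**
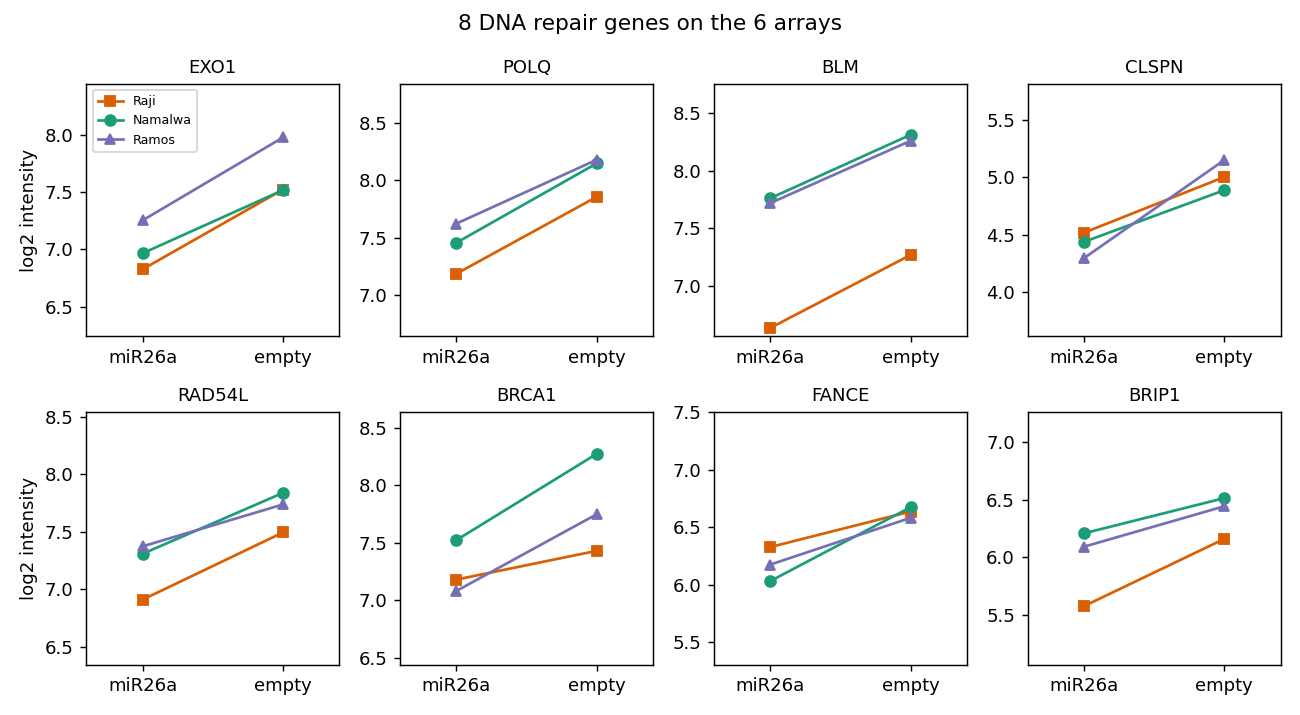
Log2 intensity on the miR26a (left) and empty (right) array of each line for the 8 genes with the smallest p, with a line joining the pair; every panel spans the same height. The miR26a point is the lower one in each of the 3 lines for all 8 genes, while BLM sits lower in Raji than in the other lines in both groups.

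In all, 8 of the 38 genes had every miR26a array below every empty array: RAD54L, EXO1, POLQ, FANCE, MSH6, CHEK2, CLSPN and TIPIN. None of the 38 had every miR26a array above every empty array. The shares over all genes tested were 2.91% and 1.61%. This count was chosen after the values were seen.

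Leaving out Raji changed which genes passed. Without the Raji pair, EXO1 (-0.64, limma adjusted p = 0.0271), POLQ (-0.62, 0.0285), BLM (-0.55, 0.0444), CLSPN (-0.65, 0.0318) and BRCA1 (-0.71, 0.0149) were below the threshold, each p again adjusted over all genes. They were among 203 of all 12012 genes that passed in that fit. It holds fewer pairs, and its differences for EXO1, POLQ and BLM were smaller than those over all 3 lines (-0.66, -0.64 and -0.58). For CLSPN and BRCA1 they were larger than over all 3 lines (-0.60 and -0.56). Passing there therefore does not of itself mean a larger difference, and why the p-values fell was not tested. BRCA1 in Raji had the smallest difference of its 3 lines. Without the Namalwa pair 0 of the 38 and 0 of all genes passed, and without the Ramos pair 0 of the 38 and 23 of all genes. EXO1, POLQ and BLM also passed when dim genes were removed more strictly, as did 50 of the 7151 genes then tested. The same 3 passed when limma used an intensity trend and a robust prior, among 102 of 12012 genes.

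A further list of 128 repair genes gives the rest of the pathway. Of its 113 tested genes, 43 were lower in all 3 lines and 5 higher, with a median difference of -0.09 log2, and 0 were called. Those with the smallest p among the lower were WDHD1 (-0.66), which holds the fork helicase to polymerase alpha, DTL (-0.56), which targets proteins for destruction at forks, and RMI2 (-0.49), a partner of BLM. The corresponding higher ones were ERCC1 (0.26), a nuclease subunit of nucleotide excision, SMUG1 (0.24), a uracil glycosylase, and SWI5 (0.24), a recombination mediator. Cell division genes were lower as well: 27 of 29 replication genes and 20 of 20 mitosis genes were lower in all 3 lines, with medians of -0.38 and -0.44. Their part in the repair values was not tested.

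**Figure D3:**
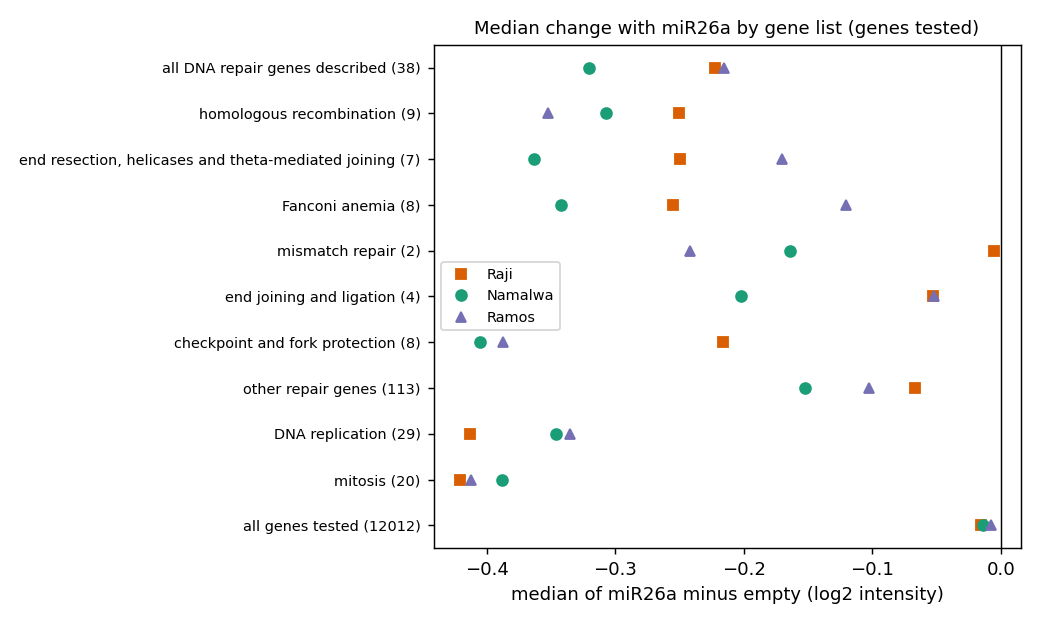
Median difference in log2 intensity, miR26a minus empty, in each line, for the 38 genes, for each role, for other repair genes, for replication and mitosis genes and for all genes tested; the number tested is in parentheses. The medians of all genes lie next to 0, and those of the 38 repair genes lie at -0.22 in Raji, -0.32 in Namalwa and -0.22 in Ramos.

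Repair genes that passed the test were found between the lines, where many of all genes tested passed as well. Each line has 2 arrays, 1 of each group, and the fit takes up the group as a block. Raji differed in 1 direction from both other lines in 17 of the 38 genes: 10 were lower than in both and 7 higher than in both, where the shares over all genes tested were 18.6% and 17.5%. FANCM was also called in both comparisons, lower in Raji than in Namalwa (-0.59 log2) and higher than in Ramos (0.51). A second FANCM probe set gave -0.32 and 0.33. Against Namalwa, 7 of the 38 were called higher and 12 lower in Raji (22.8% and 23.4% of all genes tested, together 46.1%, limma adjusted p under 0.05). Against Ramos, 11 were higher and 13 lower (26.1% and 24.4%, together 50.5%). Between Namalwa and Ramos, 2 were higher and 3 lower in Namalwa (8.09% and 6.57%, together 14.7%). Beside these shares, the counts are not read as particular to repair genes, and the list was not tested. The 2 comparisons of Raji share the Raji arrays. The split depended on scaling: with arrays centred on the 75th percentile it was 12 higher and 10 lower in Raji than in Namalwa, and with arrays centred on the median 4 and 14. Between Namalwa and Ramos either centring gave 1 higher and 3 lower in Namalwa (1764 of all genes called at the median, 1708 at the 75th percentile). These counts also rest on limma's moderation, which pools the spread over genes. Without it, 0 were higher and 1 lower in Raji than in Namalwa (490 of all 12012 genes called), 0 and 2 in Raji than in Ramos (988 genes), and 0 and 0 between Namalwa and Ramos (0 genes). For 13 of the 38 genes no pair of lines was called.

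**Figure D4:**
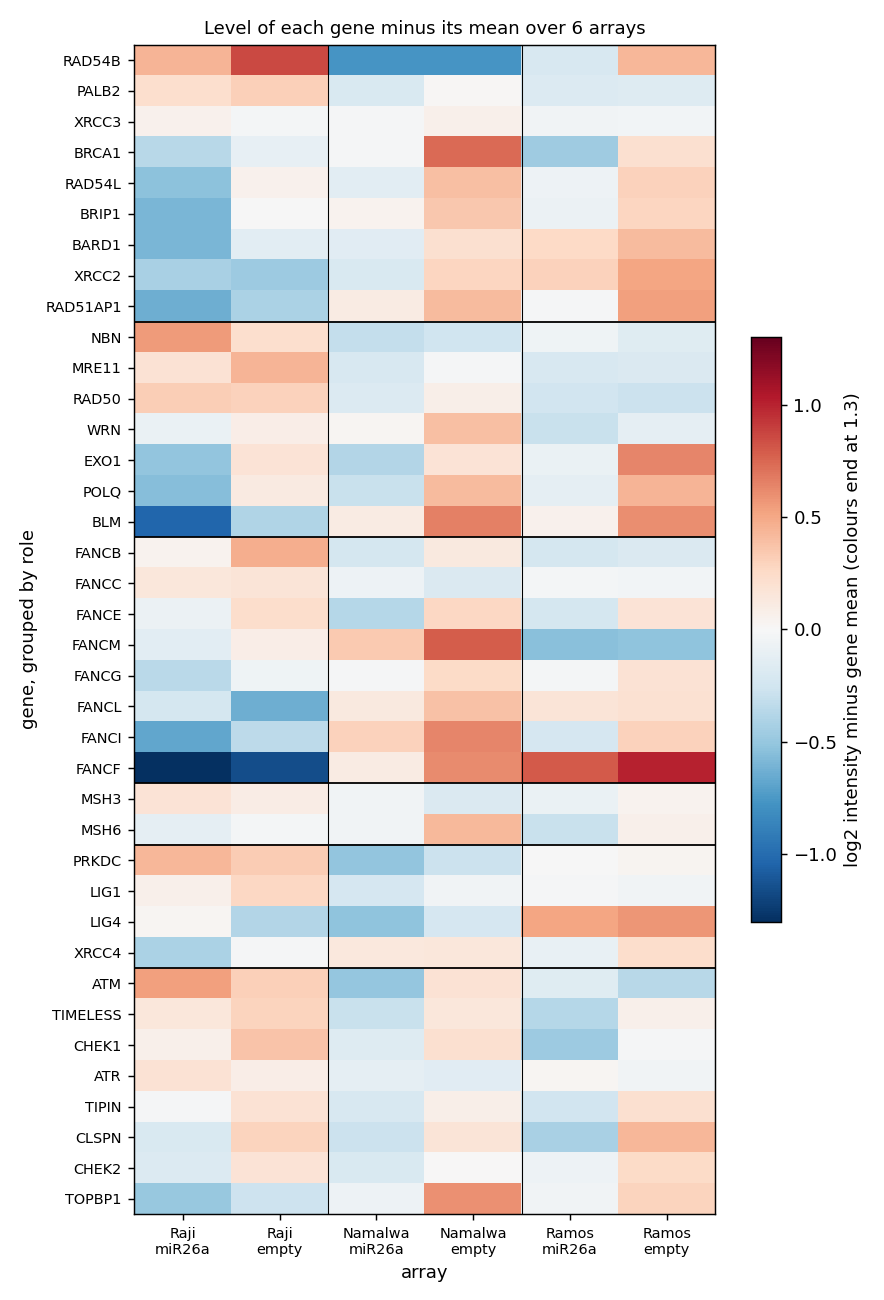
Log2 intensity of each of the 38 genes minus its own mean over 6 arrays, with genes grouped by role and a column per array, the miR26a array left of the empty array of each line. FANCF and BLM are low on both Raji arrays, RAD54B is low on both Namalwa arrays, and FANCM is low on both Ramos arrays.

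The 10 genes lower in Raji than in both other lines were BARD1, BRIP1, RAD51AP1, RAD54L, XRCC2, BLM, FANCF, FANCI, FANCL and TOPBP1. FANCF, an adaptor of the Fanconi core complex, was at 4.89 and 5.10 log2 in miR26a and empty cells of Raji, against 6.36 and 6.87 in Namalwa and 7.05 and 7.25 in Ramos. The lines did not overlap. FANCF was 3.08-fold lower in Raji than in Namalwa (-1.62 ± 0.13 log2, SE; limma adjusted p = 8.85e-06) and 4.46-fold lower than in Ramos (-2.16 ± 0.13; adjusted p = 1.03e-06). A second FANCF probe set gave -1.04 and -1.09.

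BLM was 2.13-fold lower in Raji than in Namalwa (-1.09 ± 0.12 log2, SE; limma adjusted p = 7.18e-05) and 2.06-fold lower than in Ramos (-1.04 ± 0.12; adjusted p = 8.34e-05). Its Raji arrays were the 2 lowest of the 6. FANCI was 1.96-fold lower in Raji than in Namalwa (-0.97 ± 0.13; limma adjusted p = 0.000175) and 1.46-fold lower than in Ramos (-0.55 ± 0.13; adjusted p = 0.00517). RAD51AP1, which promotes the pairing of DNA strands in recombination, was at 8.02 and 8.25 in miR26a and empty cells of Raji, against 8.77 and 9.07 in Namalwa and 8.65 and 9.20 in Ramos. It was 1.72-fold lower in Raji than in either line, and its Raji arrays did not overlap the others. XRCC2 was at 7.43 and 7.37 in miR26a and empty cells of Raji, against 7.65 and 8.13 in Namalwa and 8.15 and 8.37 in Ramos. The differences were -0.49 from Namalwa and -0.86 from Ramos.

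The 7 genes higher in Raji than in both other lines were PALB2, RAD54B, MRE11, RAD50, NBN, PRKDC and ATM. RAD54B, a relative of RAD54L, was at 6.18 and 6.60 log2 in miR26a and empty cells of Raji, against 4.98 and 4.98 in Namalwa and 5.54 and 6.17 in Ramos. Raji exceeded Namalwa 2.66-fold (1.41 ± 0.16, SE; limma adjusted p = 7.77e-05) and Ramos 1.45-fold (0.53 ± 0.16; adjusted p = 0.0194). The call against Ramos was lost without the Raji empty array or without the Ramos miR26a array (highest adjusted p = 0.257).

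MRE11, RAD50 and NBN form the complex that first holds a broken end, and were singled out after their values were seen. NBN was 0.67 log2 higher in Raji than in Namalwa and 0.49 higher than in Ramos, and all 5 of its probe sets were higher in Raji than in both lines. MRE11 was higher in Raji by 0.42 than in Namalwa and by 0.51 than in Ramos. RAD50 was higher in Raji by 0.36 than in Namalwa, a call kept in 1 of 6 fits with an array left out, and by 0.57 than in Ramos. For RAD50 these values rest on the brightest probe set, since 2 dimmer ones were lower in Raji than in both lines. A dimmer MRE11 probe set was 0.22 lower in Raji than in Ramos. PRKDC, also chosen after its values were seen, was 0.78 log2 higher in Raji than in Namalwa and 0.37 higher than in Ramos, and all 3 of its probe sets were higher. ATM was higher in Raji by 0.58 than in Namalwa and by 0.68 than in Ramos on the probe set used. Its 4 other probe sets above the minimum gave -0.39 to 0.52 against Namalwa and -0.39 to 0.65 against Ramos. Some of these calls were lost when single arrays were left out. Against Namalwa the ATM difference was 0.12 to 1.03 with 1 array left out, and not called without the miR26a array of either line. Against Ramos it was not called without the Raji miR26a or the Ramos empty array (adjusted p up to 0.157 in limma). Against Ramos, too, NBN and PRKDC were not called without the Raji miR26a array or either Ramos array, with adjusted p-values up to 0.116 and 0.248 in limma.

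BRCA1, CHEK1, CHEK2 and ATR were each called in at most 1 pair of lines. CHEK1 was 0.46 log2 higher in Raji than in Ramos (± 0.12, SE; limma adjusted p = 0.0114), a call lost without the Raji miR26a array or either Ramos array (highest adjusted p = 0.134). BRCA1 was 0.59 lower in Raji than in Namalwa (± 0.15, SE; limma adjusted p = 0.00893), a call lost without the Namalwa empty or the Raji empty array (highest adjusted p = 0.107). ATR and CHEK2 were called in no pair of lines.

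Namalwa and Ramos differed in 5 of the 38 genes, where 14.7% of all genes tested were called, so the count is not particular to repair genes. FANCM, the motor that brings the core complex to DNA, was at 6.47 and 6.91 log2 in miR26a and empty cells of Namalwa, against 5.58 and 5.60 in Ramos, with Raji between at 5.98 and 6.21. It was 2.15-fold higher in Namalwa than in Ramos (1.10 ± 0.14, SE, with a limma adjusted p = 0.000876). A second FANCM probe set, nearly as bright, gave a smaller difference of 0.65 log2. LIG4 was at 6.63 and 6.94 in Namalwa and at 7.67 and 7.73 in Ramos, with 7.18 and 6.78 in Raji. It was 1.89-fold lower in Namalwa than in Ramos (-0.92 ± 0.17; limma adjusted p = 0.00643), and a second probe set gave -0.62. RAD54B (-0.88) and FANCF (-0.54) were lower in Namalwa than in Ramos, and FANCI (0.43) was higher, with adjusted p-values of 0.00625, 0.0256 and 0.0489 in limma. The other FANCI probe sets gave 0.24 and -0.58.

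**Figure D5:**
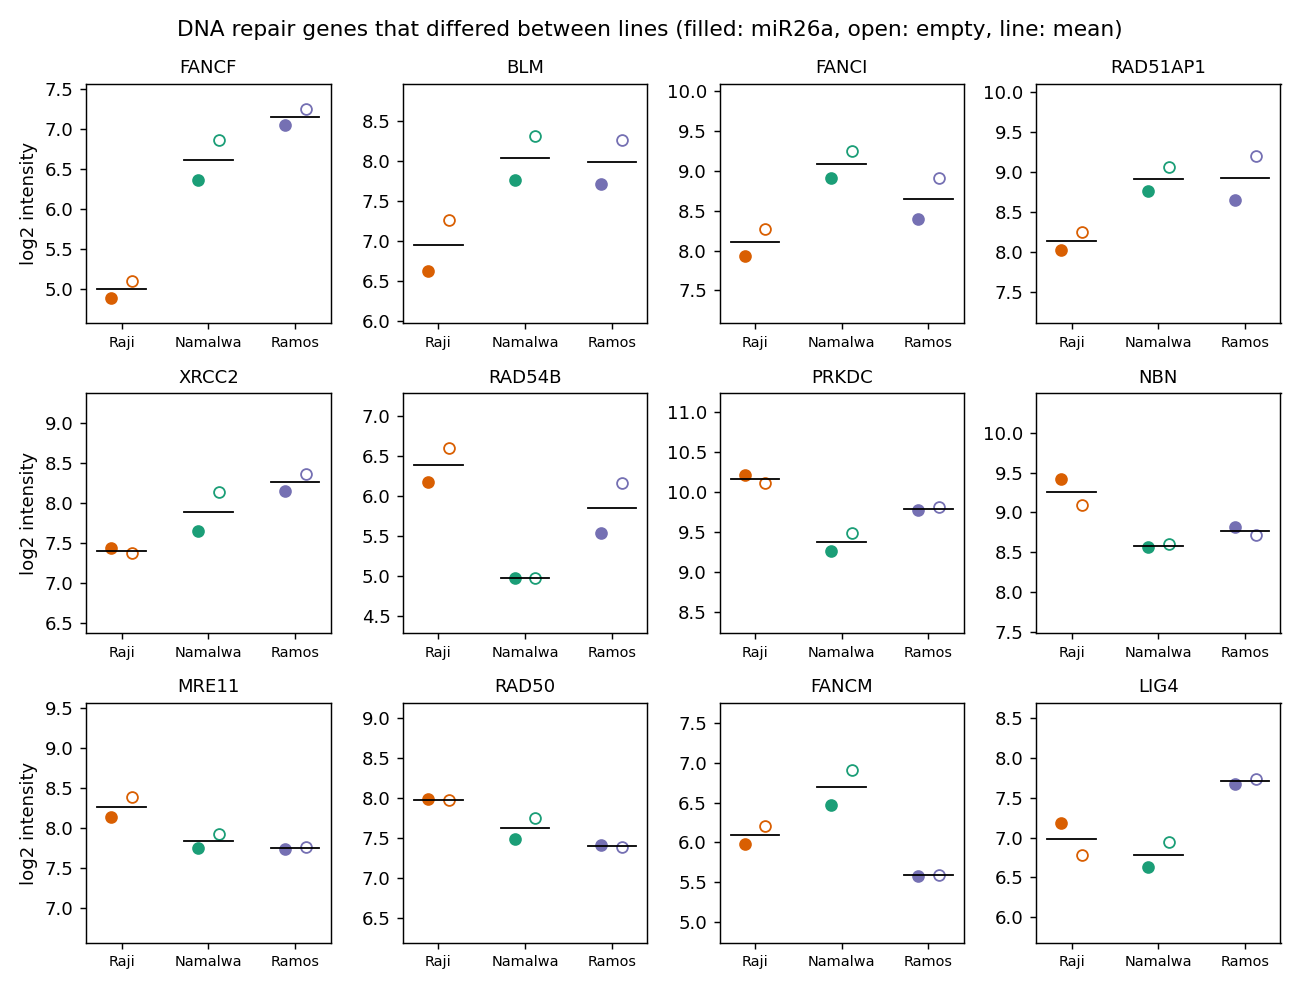
Log2 intensity on both arrays of each line (filled, miR26a; open, empty; bar, mean of the line) for 12 genes that differed between lines, chosen in part after their values were seen; every panel spans the same height. Both Raji points of FANCF, BLM, FANCI, RAD51AP1 and XRCC2 lie below all points of the other lines, and both Raji points of PRKDC, NBN, MRE11 and RAD50 lie above them.

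With 2 arrays per line, many of these calls were lost when 1 array was left out. Such a fit also has fewer arrays to estimate the spread from, so a lost call does not single out the array. Between Raji and Namalwa, the calls of PALB2, RAD54L and RAD50 were lost also without a Ramos array, which is outside that comparison. How many of all called genes were kept in every fit was not counted. When each array was left out in turn, 7 of the 19 calls between Raji and Namalwa were kept in all 6 fits: RAD51AP1, RAD54B, BLM, NBN, FANCF, FANCI and PRKDC. Between Raji and Ramos 5 of 24 were kept, those of BARD1, RAD51AP1, XRCC2, BLM and FANCF, and between Namalwa and Ramos 1 of 5, that of FANCM. LIG4 between Namalwa and Ramos was lost without the Namalwa miR26a array (adjusted p = 0.0701), and RAD54B without the Namalwa empty or the Ramos empty array (highest adjusted p = 0.0678). FANCF was lost there without the Namalwa miR26a array or either Ramos array (highest adjusted p = 0.222). FANCI in that pair was lost without any 1 of the 4 arrays involved. Between Raji and Ramos, FANCI was lost without the Ramos empty array (adjusted p = 0.0921), and between Raji and Namalwa, XRCC2 was lost without either empty array of the pair (highest adjusted p = 0.245).

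SHPRH and DDB2, of the other repair genes, differed by more between Raji and the other lines than any of the 38. SHPRH, a ubiquitin ligase of damage tolerance, was at 1.87 and 2.05 log2 in miR26a and empty cells of Raji, against 6.96 and 7.15 in Namalwa and 7.45 and 7.35 in Ramos. The Raji arrays were below the level minimum, so no fold is given. DDB2, the damage sensor of nucleotide excision, was at 7.29 and 7.69 in miR26a and empty cells of Raji, against 5.19 and 5.43 in Namalwa and 5.21 and 5.33 in Ramos, 4.52-fold and 4.64-fold higher in Raji. UNG, which removes uracil from DNA, was 2.82-fold lower in Raji than in Namalwa and 3.43-fold lower than in Ramos. FIGNL1, an ATPase that acts in recombination, was 3.35-fold lower in Raji than in Ramos, and RMI2 was 2.56-fold lower than in Namalwa.

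Higher in Raji than in Namalwa was also UIMC1 (0.90 log2), which brings BRCA1 to breaks. FAN1, a nuclease for crosslinks, was at 6.52 and 6.33 log2 in miR26a and empty cells of Raji, against 3.59 and 4.94 in Namalwa and 5.40 and 5.54 in Ramos. It was called higher in Raji than in Namalwa and lower in Namalwa than in Ramos, but its Namalwa mean was below the level minimum and its 2 Namalwa arrays lay far apart, so no size is given. Higher in Raji than in Ramos were H2AX (1.13), the histone marked at breaks, and RAD52 (1.13), a recombination mediator. RAD52 was dim in Ramos, at 4.68 and 4.39 log2 in miR26a and empty cells, the latter below the level minimum. Between Namalwa and Ramos, WDHD1 (1.08), the mismatch partner MLH3 (0.96) and RMI2 (0.50) were higher in Namalwa. The excision nuclease ERCC5 (-0.89) and the resolvase GEN1 (-0.49) were lower in Namalwa than in Ramos. Of the 113 other repair genes tested, 28 were higher and 26 lower in Raji than in Namalwa, 29 and 30 in Raji than in Ramos, and 4 and 5 in Namalwa than in Ramos. The shares of all genes tested were 22.8% higher and 23.4% lower, 26.1% and 24.4%, and 8.09% and 6.57%, in the same order. The counts are therefore not particular to repair genes.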

How the data were processed

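Biotin-labelled total RNA of 6 samples was measured on Affymetrix U133 Plus arrays. As deposited, the values are log2 intensities; the authors applied RMA in BRB Array Tools, per the labels' design text, and the submitters' processing notes also name GCOS. RMA gives every array the same distribution, so a shift of all RNAs one way would not be seen. No detection calls were used.

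Of 54675 probe sets, 41091 carried 1 gene symbol in GEO's platform annotation, 1801 several and 11721 none, and 62 were controls. Symbols were updated through Entrez IDs for 41037 probe sets with RefSeq GRCh38.p14, used for names only. The brightest probe set stood for a gene. Genes whose mean reached 4.42, the median over probe sets other than controls, were tested with limma (3.58.1, R 4.3.3), with line and group both in the fit and p-values adjusted by Benjamini-Hochberg at 0.05. The pairs come from the line names in the labels; deviations from group means within a line correlated at 0.950 in Raji, 0.861 in Namalwa and 0.917 in Ramos. The fit was tested on simulated data, where false calls ran above the nominal rate when noise was drawn from the moderated spread. These simulated arrays held no differences between lines, and only the comparison of groups was scored. The rate of false calls between lines was not tested.

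The genes, roles and lists were chosen with earlier results of these data known. Values on every array are given for the 8 genes with the smallest p between groups, the 6 with the largest differences from Raji, the 4 with the largest between Namalwa and Ramos, and BRCA1, FANCI, ATM, ATR, CHEK1 and CHEK2 as well-known genes of their roles; mismatch repair is given by its means. Of other repair genes, up to 3 per direction and comparison with the smallest p are named. Alternatives covered the pairing, scaling, level minimum, probe set, moderation, threshold and leaving out each array or pair. Precision is limited by having 3 pairs.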

Additional observations from a re-analysis of the deposited data

Results flagged for a closer look

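For 3 genes the lines differed in direction by more than 0.2 log2 on either side of 0, a limit set after the data were seen. With 1 array per line and group, these differences between lines were not tested. FANCL, the ubiquitin ligase of the Fanconi core complex, was 0.403 log2 higher in miR26a than in empty cells of Raji, while the difference was -0.2536 in Namalwa and -0.0336 in Ramos. LIG4 differed by 0.4042 in Raji, -0.3095 in Namalwa and -0.0601 in Ramos. ATM differed by 0.2289 in Raji, -0.695 in Namalwa and 0.2058 in Ramos. For all 3 genes Namalwa was the negative side, and its empty array had the ACTB 3′ to 5′ difference of 3.58 log2; the part of that array was not tested. The ATM probe set used gave -0.69 and another -0.49 in Namalwa, and its 3 others above the level minimum gave -0.15, 0.10 and -0.09.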

How the results depend on the processing

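Between groups, without the line as a replicate block 0 genes and 0 of the 38 were called (limma adjusted p = 1 for EXO1 and for each of the other named genes), and with it as a random block also 0 and 0. The level minimum at the 75th percentile called 50 genes, 3 of them among the 38, the intensity trend with a robust prior 102 and 3, and a threshold of 0.1 called 79 and 4. Leaving out 1 array or pair gave 0 to 203 genes and 0 to 5 of the 38 lower, with a median of -0.27 to -0.24 log2 over the 38. The range of the ATM difference over lines was 0.34 with the mean of all probe sets.

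Called in Raji against Namalwa were 4 of the 38 higher and 11 lower with no level minimum (5800 of 19775 genes), 4 and 14 with arrays centred on the median (5442 of 12012), 12 and 10 centred on the 75th percentile (5888) and 11 and 15 at a threshold of 0.1 (6414). Against Ramos they were 7 higher and 14 lower with the mean of all probe sets (5672 of 10460). Called higher in Namalwa than in Ramos was 1 with no level minimum (1676 of 19775 genes called) and 1 with the most variable probe set (1606 of 10642). It was also 1 with arrays centred on the median (1764 of 12012) or on the 75th percentile (1708). A threshold of 0.1 gave 4 higher and 5 lower (2493 of 12012). With no moderation, 490 genes were called between Raji and Namalwa (0 higher and 1 lower of the 38), 988 between Raji and Ramos (0 and 2) and 0 between Namalwa and Ramos (0 and 0). Leaving out 1 array gave 3 to 5 higher and 6 to 11 lower between Raji and Namalwa, 1 to 11 and 7 to 13 between Raji and Ramos, and 1 to 4 and 1 to 4 between Namalwa and Ramos, with 870 to 2430 genes called there in all.

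Direction turned for ATM between groups (0.0293 with the mean of all probe sets; -0.24 to 0.22 with arrays left out, positive without Namalwa) and for CHEK1 (0.32 with its most variable probe set). RAD50 turned to -0.0815 and -0.55 between Raji and Namalwa, and to -0.11 and -0.60 between Raji and Ramos, with the mean of all probe sets and with the most variable one. MRE11 turned to -0.22 between Raji and Ramos with its most variable probe set. In these 4 genes the probe set chosen, or for ATM also the Namalwa pair, moved the value; the cause was not tested. Dim genes such as CLSPN and XRCC3 lie near the level minimum, which limits what their values show.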
